A study of Mus musculus with 38 samples.

Results

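ChIP-seq of histone H3 trimethylated at lysine 27 (H3K27me3) was compared in mouse embryonic stem cells (mESCs) with IκBα (WT) and in mESCs that had lost it (KO). The libraries were the 6 of the 38 samples in the series whose titles name H3K27me3 in WT or KO mESCs, with 3 of each genotype, and the others held other histone marks and inputs. All came from the ES-E14TG2a line, kept undifferentiated (0 h) in serum with leukaemia inhibitory factor (LIF). The labels give the genotypes as IkappBalpha+/+ and IkappBalpha-/-. The KO clones carried CRISPR edits made with 2 guides to exon 1 of Nfkbia, the gene of IκBα, and the WT clones had received a scrambled guide. Each library came from another of 3 clones of its genotype, so that clone and replicate cannot be told apart. Each deposited list gave the islands of a library, that is, stretches in which the ChIP reads outnumbered those of the input of that genotype, with 1 input for all WT and 1 for all KO libraries. On chromosomes 1 to 19 the lists held 40869 to 51959 islands, and islands that overlapped between libraries merged into 57735 regions.

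H3K27me3 is laid down by Polycomb repressive complex 2 (PRC2), which accumulates at CpG-dense promoters of silent genes, above all those of developmental transcription factors such as the Hox genes. In mESCs many of these promoters also carry H3K4me3 and are called bivalent. The mark further covers broad domains over imprinted clusters, where it lies on the silenced allele, and lower, diffuse levels occur in gene bodies and between genes. IκBα, the cytoplasmic inhibitor of NF-κB, has also been described on chromatin together with PRC2, and the comparison asks how the mark is spread without it.

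The promoters of 5 genes under regions that changed are printed first, since CpG density is the sequence feature to which PRC2 is known to respond. They were read from RefSeq (GRCm38.p6), 250 bases before to 50 after the start site, 5′ to 3′ on the strand of the gene, with every CG in capitals (CG reads the same on both strands). The first 3 lay under regions with fewer H3K27me3 reads in the KO, and the last 2 under regions with more.
Gbx2, chr1:89931127-89931426, minus strand: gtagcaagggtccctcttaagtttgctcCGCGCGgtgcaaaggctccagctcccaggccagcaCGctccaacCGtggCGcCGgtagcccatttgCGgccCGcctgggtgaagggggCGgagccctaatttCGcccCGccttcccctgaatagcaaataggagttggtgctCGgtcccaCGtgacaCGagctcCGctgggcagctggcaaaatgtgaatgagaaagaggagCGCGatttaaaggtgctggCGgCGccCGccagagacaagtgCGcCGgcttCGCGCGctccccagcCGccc
Foxd3, chr4:99656049-99656348, plus strand: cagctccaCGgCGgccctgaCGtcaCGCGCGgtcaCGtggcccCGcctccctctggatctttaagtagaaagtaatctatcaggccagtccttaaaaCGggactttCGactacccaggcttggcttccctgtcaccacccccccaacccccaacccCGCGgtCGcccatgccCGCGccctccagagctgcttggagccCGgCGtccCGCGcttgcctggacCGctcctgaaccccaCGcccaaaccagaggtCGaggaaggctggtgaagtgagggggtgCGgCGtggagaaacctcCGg
Inhbb, chr1:119422199-119422498, minus strand: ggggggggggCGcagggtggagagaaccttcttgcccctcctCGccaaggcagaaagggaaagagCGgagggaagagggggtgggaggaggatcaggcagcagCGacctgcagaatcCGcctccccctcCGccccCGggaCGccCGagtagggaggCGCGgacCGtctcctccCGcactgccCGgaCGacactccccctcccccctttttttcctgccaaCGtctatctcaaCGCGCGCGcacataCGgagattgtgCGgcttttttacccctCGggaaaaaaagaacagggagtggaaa
Ina, chr19:47014431-47014730, plus strand: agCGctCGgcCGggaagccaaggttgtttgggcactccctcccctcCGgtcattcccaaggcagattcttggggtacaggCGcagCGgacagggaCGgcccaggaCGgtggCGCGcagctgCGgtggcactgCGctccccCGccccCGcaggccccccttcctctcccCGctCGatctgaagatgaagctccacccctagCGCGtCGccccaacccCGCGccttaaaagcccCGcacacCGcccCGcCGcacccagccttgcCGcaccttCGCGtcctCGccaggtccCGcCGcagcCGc
Phlda2, chr7:143502475-143502774, minus strand: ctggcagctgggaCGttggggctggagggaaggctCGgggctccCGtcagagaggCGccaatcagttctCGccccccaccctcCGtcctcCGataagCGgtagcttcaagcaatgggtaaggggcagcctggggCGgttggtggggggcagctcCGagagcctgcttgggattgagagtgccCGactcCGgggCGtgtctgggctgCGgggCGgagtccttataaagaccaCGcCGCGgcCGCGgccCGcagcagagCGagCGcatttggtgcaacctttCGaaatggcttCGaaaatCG
They held 27, 25, 23, 32 and 26 CG in this order. Of all RefSeq promoters on chromosomes 1 to 19, 16.0% held at least 27, 18.9% at least 25, 22.1% at least 23, 9.83% at least 32 and 17.4% at least 26, against a median of 7. CpG-dense promoters thus stood on both sides, and over all promoters under regions of like length the median was 14 CG where the region was lower in the KO, 9.5 where it was higher and 14 where it was not called.

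The ChIP reads inside islands numbered 8860024, 9863612 and 9905320 in WT replicates 1 to 3 and 10634133, 10870082 and 10097991 in KO replicates 1 to 3. The promoters of Pou5f1, Sox2 and Nanog, which define pluripotent cells, held no H3K27me3 island in any library and carried H3K4me3 calls at 2, 3 and 2 of the 3 promoters in the WT libraries and at 3 of 3 in each KO library. Of 10 ubiquitously expressed genes, 1 or 2 had an island in a library. The promoter of Nfkbia held none either, so the mark did not check the genotype. WT replicate 1 and KO replicate 2 stood apart in holding many short islands. Islands under 2 kb numbered 6554, 2504 and 1350 in the WT and 1906, 5580 and 1780 in the KO. No 2 libraries were copies of each other: of the islands that shared coordinates, 1.03% to 3.51% shared their read count. Input reads per kb of island were 17.2 to 17.4 in the WT and 19.8 in the KO. In 3 chromosome segments (chr2:165-171 Mb, chr8:40-129 Mb and chr12:103-119 Mb) the KO input over the WT input, relative to the rest, was 1.38, 1.18 and 0.529, and genes there are marked or left out.

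Islands covered more of the gene bodies and of the sequence between genes in each KO library than in any WT library, while over promoters the genotypes overlapped. An island was assigned to the promoter class if it met the window from 5000 bp upstream to 100 bp downstream of the 5′ end of a protein-coding gene, to the gene body class if it met a gene but no window, and to the intergenic class otherwise. Gene body islands covered 69.8, 83.1 and 82.2 Mb in the WT and 90.3, 92.3 and 86.1 Mb in the KO, with means of 78.4 ± 7.41 and 89.6 ± 3.12 Mb (SD, n = 3 each), a difference of 14.3%. Intergenic islands covered 78.4, 96.6 and 94.9 Mb against 105.0, 106.3 and 100.3 Mb, with means of 90.0 ± 10.04 and 103.9 ± 3.12 Mb (SD, n = 3 each), a difference of 15.4%. Promoter islands covered 64.5, 77.4 and 79.8 Mb against 81.1, 76.5 and 78.5 Mb, with means of 73.9 ± 8.20 and 78.7 ± 2.31 Mb (SD, n = 3 each), a difference of 6.50% that was smaller than the spread in the WT. The gene body and intergenic differences had an exact permutation p of 0.1, two-sided, the smallest that 3 against 3 libraries allow, and the promoter difference one of 0.5. Of the 26 comparisons of this family 4 reached 0.1, and the smallest adjusted value was 0.65 in the exact permutation tests with Benjamini-Hochberg adjustment. WT replicate 1 weighed on the size: without it the differences were 6.92 Mb for gene bodies, 8.11 Mb between genes and 0.127 Mb over promoters. With the 3 segments left out they were 8.85, 10.9 and 3.42 Mb in this order (exact permutation p = 0.1, 0.1 and 0.7). With the same number of islands taken from each list, those with the lowest p-values, they were 7.32, 8.83 and 4.16 Mb, and the genotypes then overlapped in all 3 classes (exact permutation p = 0.2, 0.4 and 0.6).

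**Figure D1:**
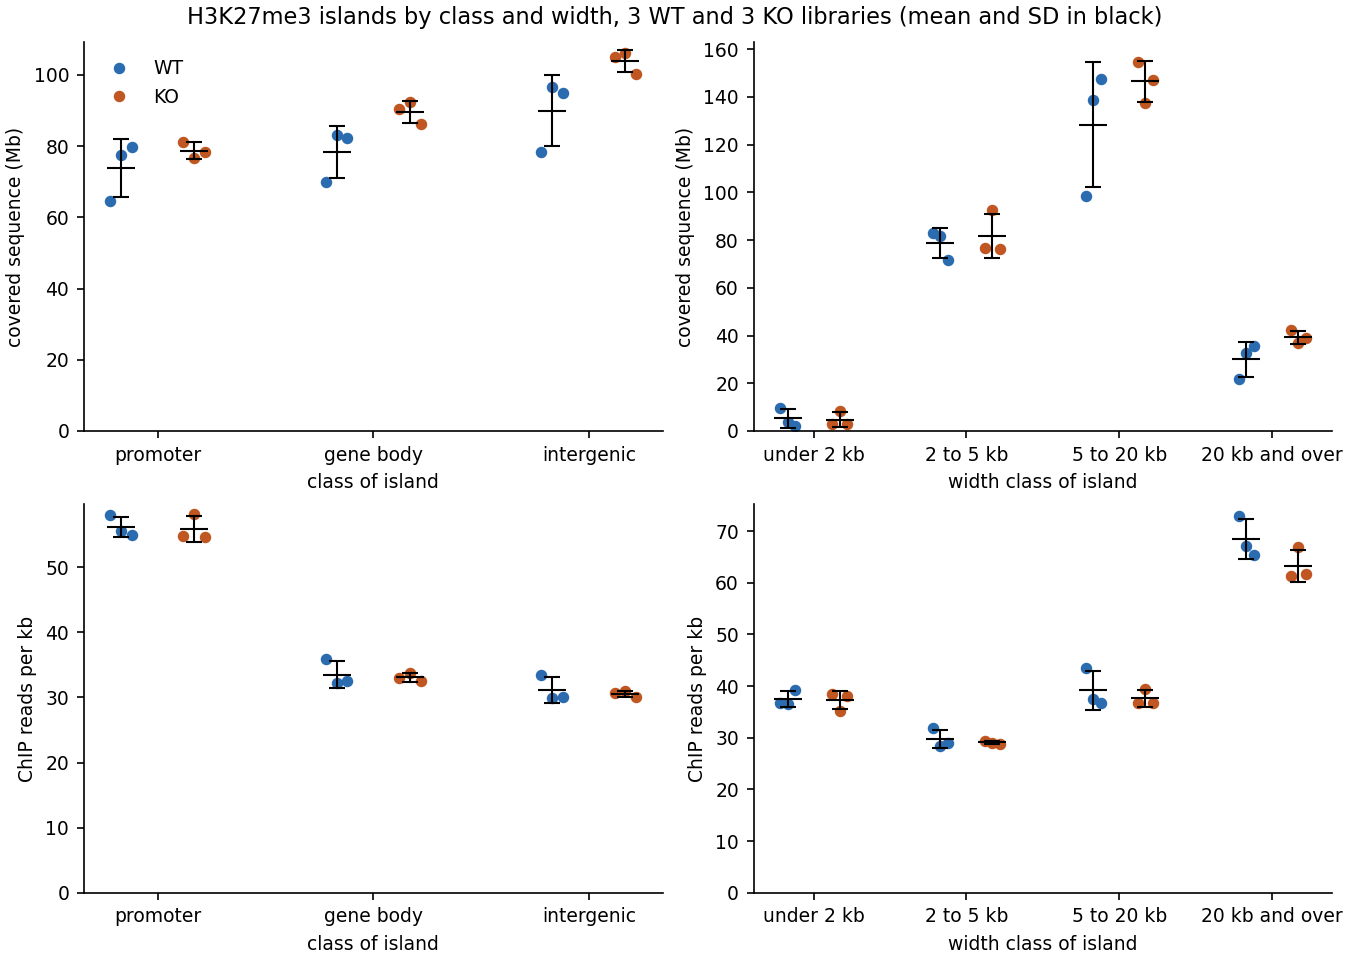
H3K27me3 islands of the 3 WT and 3 KO libraries by class (left) and width class (right), as covered sequence in Mb (top) and ChIP reads per kb of island (bottom); points are libraries, in replicate order, and black bars are means with SD. Covered gene body, intergenic and long-island sequence was higher in each KO library than in each WT library, while reads per kb overlapped in every class.

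The broad islands held a part of this. Islands of 20 kb and over had median widths of 25600 to 26400 bp in the 6 libraries. These islands numbered 732, 1085 and 1173 in the WT and 1368, 1197 and 1269 in the KO. They covered 21.6, 32.8 and 35.7 Mb against 42.2, 36.7 and 38.9 Mb, with means of 30.0 ± 7.44 and 39.3 ± 2.73 Mb (SD, n = 3 each, 30.8% more, exact permutation p = 0.1). The difference of 9.24 Mb was 5.03 Mb without WT replicate 1 and 5.07 Mb with the 3 segments left out (exact permutation p = 0.3). Islands of 5 to 20 kb covered 98.5 to 147.6 Mb in the WT and 137.5 to 154.8 Mb in the KO, and those of 2 to 5 kb 71.5 to 83.0 Mb and 76.1 to 92.5 Mb. Both of these ranges overlapped. Islands under 2 kb covered 9.78, 3.88 and 2.11 Mb against 2.99, 8.38 and 2.78 Mb, where WT replicate 1 and KO replicate 2 stood apart. The mean width of islands of 20 kb and over was 29511 to 30427 bp in the WT and 30662 to 30814 bp in the KO, without overlap.

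The density of raw ChIP reads inside islands, which depth also moves, did not separate the genotypes in any class. Per kb, promoter islands held 57.9, 55.5 and 55.0 ChIP reads in WT libraries and 54.8, 58.2 and 54.6 in KO libraries, intergenic islands 33.4, 29.9 and 30.0 against 30.6, 31.0 and 30.0, and gene body islands 35.8, 32.3 and 32.4 against 33.0, 33.8 and 32.5. The log2 ratio of promoter to intergenic reads per kb, in which depth cancels, was 0.80, 0.89 and 0.87 in the WT and 0.84, 0.91 and 0.86 in the KO (difference 0.02, exact permutation p = 0.7, two-sided). Promoter islands took 42.2%, 43.6% and 44.3% of the reads in islands in the WT and 41.8%, 41.0% and 42.4% in the KO (difference −1.63 percentage points, exact permutation p = 0.2). The intergenic share was 29.5%, 29.3% and 28.8% against 30.2%, 30.3% and 29.9%, so that each KO library lay above each WT library there. In islands of 20 kb and over the density was 72.9, 67.2 and 65.4 reads per kb in the WT and 61.4, 66.9 and 61.7 in the KO, which overlapped (exact permutation p = 0.2). Median island widths were 5600 to 7000 bp over promoters in the WT and 6000 to 7000 bp in the KO, and 3000 to 4200 bp against 3400 to 4200 bp between genes. In bulk ChIP, fewer cells that carry the mark and less of the mark per cell cannot be told apart.

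The added sequence lay both in regions that all libraries had and in regions that some had. The 18622 regions called in all 6 libraries covered 191.3 ± 16.6 Mb in the WT and 206.6 ± 3.41 Mb in the KO (SD, n = 3 each), a mean difference of 15.3 Mb. The 37303 regions that were called in some libraries only, and were not restricted to a genotype, added 13.3 Mb. Without WT replicate 1 these differences were 5.73 and 8.36 Mb, so that which of them was the larger rested on that library. Regions called in 3 of 3 KO and 0 of 3 WT libraries (KO-restricted, 1045) held 4.37 Mb and those called in 3 of 3 WT and 0 of 3 KO libraries (WT-restricted, 765) held 3.09 Mb. Among the 18622, 2227 were longer in every KO library than in every WT library and 924 were shorter. The excess of longer regions was smaller over promoters (10.7% against 6.39%) than in gene bodies (13.6% against 4.70%) and between genes (11.9% against 3.77%). These are counts over neighbouring regions and carry no test.

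Restricted regions split by class. Over promoters the WT-restricted regions were the more numerous, with 139 against 86 KO-restricted (1.46% and 0.902% of 9533 merged regions). Gene bodies held 254 against 395 (1.29% and 2.01% of 19689) and intergenic sequence 372 against 564 (1.30% and 1.98% of 28513). Over all 57735 merged regions the shares were 1.33% and 1.81%, so the split rests on few regions. Outside the 3 segments the numbers were 120 against 75, 196 against 334 and 256 against 400. Restricted regions were short, with median widths of 5000 bp in the WT-restricted and 5400 bp in the KO-restricted set. With the same number of islands from each list, the KO share of intergenic restricted regions went from 60.3% to 48.3%, so that its side of the balance turned.

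The other marks set these regions apart by kind. Of the 572 WT-restricted regions outside the segments, 63.8% overlapped H3K27ac calls and 78.0% H3K4me1 calls of the WT cells (each in at least 2 of 3 libraries), marks of active and of primed enhancers. Of the 809 KO-restricted regions, 17.3% and 27.3% did. Regions called in all 6 libraries, which were wider (median 11000 bp), stood at 49.9% and 75.6%. H3K4me3, found at promoters, overlapped 16.1% of the WT-restricted and 4.20% of the KO-restricted regions, and 30.5% of those called in all 6. H3K9me3, a mark of heterochromatin, overlapped 7.69%, 9.27% and 16.7%. Calls made in the KO cells gave 68.9% and 15.0% for H3K27ac and 78.0% and 25.1% for H3K4me1, the WT-restricted set being the higher as by the WT calls. For H3K9me3 they gave 6.47% and 5.93%, and the order turned. Median GC content was 46.5% in the WT-restricted and 45.3% in the KO-restricted regions.

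**Figure D2:**
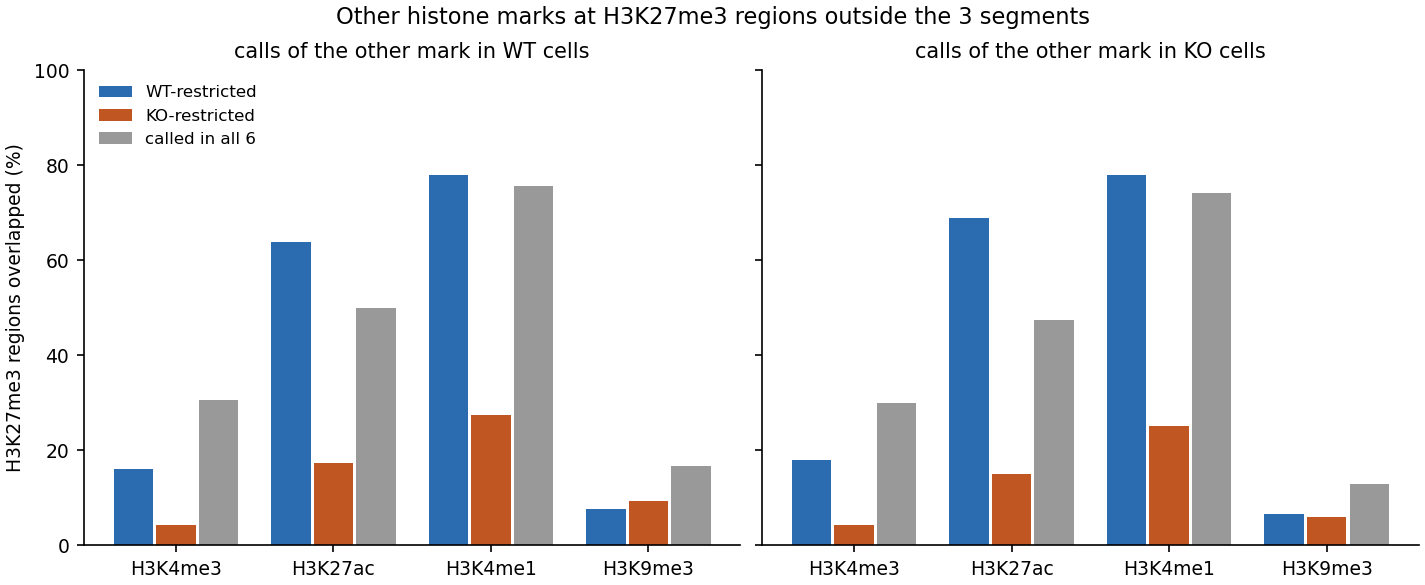
Percent of H3K27me3 regions outside the 3 segments that overlap calls of another mark in at least 2 of 3 WT (left) or KO (right) libraries; bars are WT-restricted (572 regions, 3 of 3 WT and 0 of 3 KO libraries), KO-restricted (809) and regions called in all 6 libraries (17634). H3K27ac overlapped 63.8% of the WT-restricted and 17.3% of the KO-restricted regions by the WT calls.

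At the level of genes, 8110 to 8582 of 20807 promoter windows met an island in a library, 6579 in all 6 and 10480 in none. Windows marked in the KO alone (3 of 3 against 0 of 3) numbered 103, or 89 outside the segments, and those marked in the WT alone 131, or 106 outside. By the length covered, the leading KO-restricted promoters were those of Gm4791, Btg4, Gm45618, Olfr411 and Cd244a. Btg4, which acts in the clearance of maternal transcripts, had 4600, 3600 and 4400 bp of its window covered in the KO at 22.6, 23.9 and 20.8 ChIP reads per kb. Olfr411, an olfactory receptor gene, had 4250, 4050 and 3250 bp covered at 21.5 to 22.8 reads per kb. Cd244a, which encodes a receptor of natural killer cells, had 1292, 5100 and 5100 bp covered and the highest density of the 5, at 58.5, 49.0 and 53.1 reads per kb. None of these 5 windows held an H3K4me3 or H3K27ac call in any library, and that of Cd244a held H3K9me3 calls in all 6.

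Among the WT-restricted promoters, Lemd1 and AC124108.1 (which share a window), Tcf15, Nt5c3b and Agpat2 had the most sequence covered. Tcf15, a bHLH transcription factor that primes mESCs for differentiation, had 5100, 5100 and 3300 bp covered in the WT at 29.9, 30.1 and 30.4 reads per kb and no island in the KO. H3K27ac calls covered the whole 5100 bp there in all 6 libraries. H3K4me3 calls covered 428, 243 and 685 bp in the WT and 918, 734 and 1183 bp in the KO, without overlap. The Nanog window, without an H3K27me3 island in any library, had H3K4me3 over 0, 65 and 0 bp against 600, 1516 and 1240 bp. At Nfkbia, also without an island, it was 478, 730 and 703 bp against 0, 360 and 585 bp, which overlapped. The share of all promoters with such a difference was not counted. Agpat2, an acyltransferase of phospholipid synthesis, had 4083, 4883 and 3600 bp covered at 25.2, 21.8 and 23.6 reads per kb, and also lay in H3K27ac in all 6. Over Lemd1 the WT islands held 31.1 to 32.6 reads per kb. The wider merged region there was called in all 6 libraries, and its reads per kb were not called changed (log2 fold change 0.02 ± 0.11 (SE), edgeR, adjusted p = 0.977). No KO island reached the window, so the KO reads in it are unknown. The KO values came from islands elsewhere in the region, so the fit cannot show how density differed in the window.

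Read counts were then compared over regions of like length, that is, the 1996 regions present in all 6 lists in which the least covered length was no less than 0.8 of the greatest (edgeR's quasi-likelihood test, called at a Benjamini-Hochberg adjusted p below 0.05). The KO had more reads over 316 of them (15.8%) and fewer over 391 (19.6%), and most changes were small: the median log2 fold change was 0.20 among the former and −0.21 among the latter. Promoter regions, the largest class, had 226 higher and 278 lower of 1304, gene body regions 60 and 53 of 334, and intergenic regions 30 and 60 of 358. Regions of 20 kb and over held 216 of the higher and 248 of the lower calls, of 962 tested. Outside the segments there were 268 higher and 384 lower of 1886, of which 16 passed 0.5 on the log2 scale, and inside them 48 and 7 of 110. The split rested on the scaling: with all reads in islands as the library size, 104 were higher and 658 lower, and the share of higher calls went from 44.7% to 13.6%, with the median over all regions at −0.09 in place of −0.01. The p-values rest on the spread between these clones, which edgeR estimates in part from all regions together and not from each region alone.

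**Figure D3:**
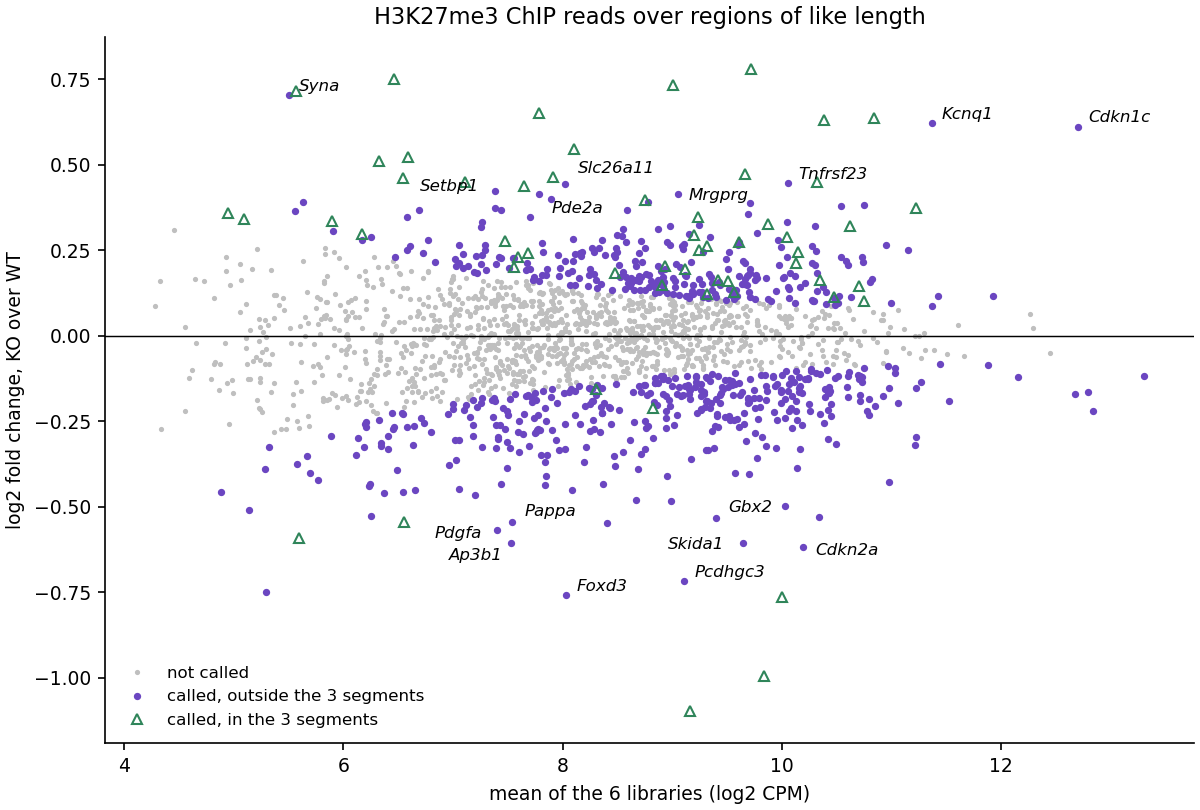
Log2 fold change (KO over WT) of H3K27me3 reads against the mean level of the 6 libraries (log2 CPM) for the 1996 regions of like length; grey points were not called, purple points were called outside the 3 segments and green triangles inside them. Most of the called regions lie within 0.5 of 0, and Foxd3, Pcdhgc3, Cdkn2a, Kcnq1 and Cdkn1c are among those beyond it.

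Named by rule as the most reduced were regions over the transcription factor genes Foxd3 and Gbx2, the Cdkn2a locus, the C-type gamma protocadherins, Skida1, Pdgfa, Ap3b1 and Pappa. Levels are given as CPM, the read count of a region scaled to the library's total over the tested regions. The region over Foxd3, a forkhead factor of the epiblast and neural crest (chr4:99648601-99661200), had 327.0, 300.3 and 357.6 CPM in the WT and 179.5, 193.0 and 210.2 in the KO. This was a log2 fold change of −0.76 ± 0.06 (SE; edgeR, adjusted p = 3.09e-29). The rule named only regions whose WT and KO values did not overlap. The region over Gbx2, a homeobox factor of naive pluripotency (chr1:89916001-89939800), had 764.6, 800.5 and 827.5 CPM against 543.6, 557.1 and 554.4 (−0.53 ± 0.05). These 2 promoters also carried H3K4me3, which covered 638, 629 and 636 bp of the Gbx2 window in the WT and 984, 1192 and 1652 bp in the KO, and 1887, 208 and 1598 bp against 1738, 2217 and 2311 bp of the Foxd3 window. The Gbx2 values did not overlap between the genotypes and the Foxd3 values did. How many other promoters differ in H3K4me3 as that of Gbx2 does was not counted.

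Cdkn2a and Cdkn2b, the cell cycle inhibitor locus that Polycomb is known to silence, lay under a region of 52.4 kb (chr4:89264401-89316800) with 1364.0, 1399.2 and 1481.6 CPM in the WT and 934.3, 884.0 and 949.6 in the KO (−0.62 ± 0.04). The 23.4 kb region over Pcdhgc3, Pcdhgc4 and Pcdhgc5, C-type exons of the clustered gamma protocadherins, had 682.4, 681.2 and 695.1 CPM against 419.6, 417.7 and 415.7 (−0.72 ± 0.05), so that the spread within a genotype was small beside the difference. Over Skida1, Mllt10 and A930004D18Rik (chr2:18028401-18055600) it was 950.5 to 988.4 against 617.3 to 667.8 CPM (−0.60 ± 0.04); Mllt10 encodes a partner of the H3K79 methyltransferase Dot1l. Pdgfa, a platelet-derived growth factor (chr5:138992201-139003600), had 198.1 to 205.2 against 131.2 to 139.6 CPM (−0.57 ± 0.07). Inside gene bodies, the regions over Ap3b1, an adaptor protein of vesicle transport (−0.61 ± 0.07), and Pappa, a protease of IGF-binding proteins (−0.54 ± 0.07), were lower as well. The 8 calls held under each of the 16 or 17 other settings in which the region was tested, the input as offset giving smaller changes for Pcdhgc3 (−0.38), Skida1 (−0.30) and Foxd3 (−0.49).

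Of the 8 gains named by the rule, 4 lay over an imprinted cluster at the end of chromosome 7. The region of 207.4 kb over Cdkn1c, Slc22a18 and Phlda2 (chr7:143298001-143505400), maternally expressed genes of which Cdkn1c encodes a cyclin-dependent kinase inhibitor and Phlda2 restrains placental growth, had 5175.6, 5222.2 and 5392.3 CPM in the WT and 7973.1, 8178.8 and 7977.3 in the KO. This was a log2 fold change of 0.61 ± 0.03 (SE; edgeR, adjusted p = 1.72e-63). The region inside Kcnq1, the potassium channel gene in which the imprinted antisense transcript Kcnq1ot1 begins (chr7:143124601-143218000), had 2079.7, 2055.6 and 2098.9 CPM against 3176.7, 3195.2 and 3224.4 (0.62 ± 0.04). Tnfrsf23, a decoy receptor gene (chr7:143686801-143747200), had 908.4, 902.3 and 896.3 against 1209.7, 1310.6 and 1166.4 CPM (0.45 ± 0.04), and the region over Osbpl5 and Mrgprg (chr7:143747601-143772800) had 460.9, 470.7 and 437.2 against 609.1, 612.3 and 603.9 CPM (0.42 ± 0.05).

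These regions lie near each other, with gaps between some of them, so they were looked at as a stretch, which was chosen after their values were seen. All 5 like-length regions from 143073001 to 143772800 were higher, the remaining one over the promoters of Kcnq1 and Trpm5 at 0.28 ± 0.04. Beyond it, the regions up to Shank2 had more reads per kb by 0.17 to 0.37 on the log2 scale in the fit described next, and 4 of these 11 were called. The KO input differed from the WT input by −0.06 to 0.05 (log2) over the 5 regions. The 4 named gains in this stretch kept their direction and their call under each of the 16 or 17 other settings.

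The remaining gains named by the same rule were smaller in level. Syna, the envelope gene that fuses placental syncytiotrophoblast, with Clip2 (chr5:134557201-134560400), had 34.8, 35.0 and 33.5 CPM against 50.9, 58.3 and 59.1 (0.70 ± 0.12), but the KO input was higher there by 0.51 and the call was lost with the input as offset (log2 fold change 0.11, edgeR, adjusted p = 0.503). Slc26a11 and Sgsh, an anion transporter and a lysosomal sulfamidase, had 217.8 to 221.9 against 276.8 to 337.9 CPM (0.45 ± 0.06). Setbp1, which encodes a SET-binding protein, had 136.6 to 147.0 against 179.5 to 210.2 CPM (0.42 ± 0.07), and the region inside Pde2a, a phosphodiesterase, and Gm45837 had 167.8 to 209.6 against 240.8 to 262.0 CPM (0.41 ± 0.07). The Syna, Setbp1 and Pde2a calls were lost where regions of any length were tested together (edgeR, adjusted p of 0.0532 for Setbp1 and 0.0715 for Pde2a). With the input as offset the Setbp1 change was 0.25 and still called.

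**Figure D4:**
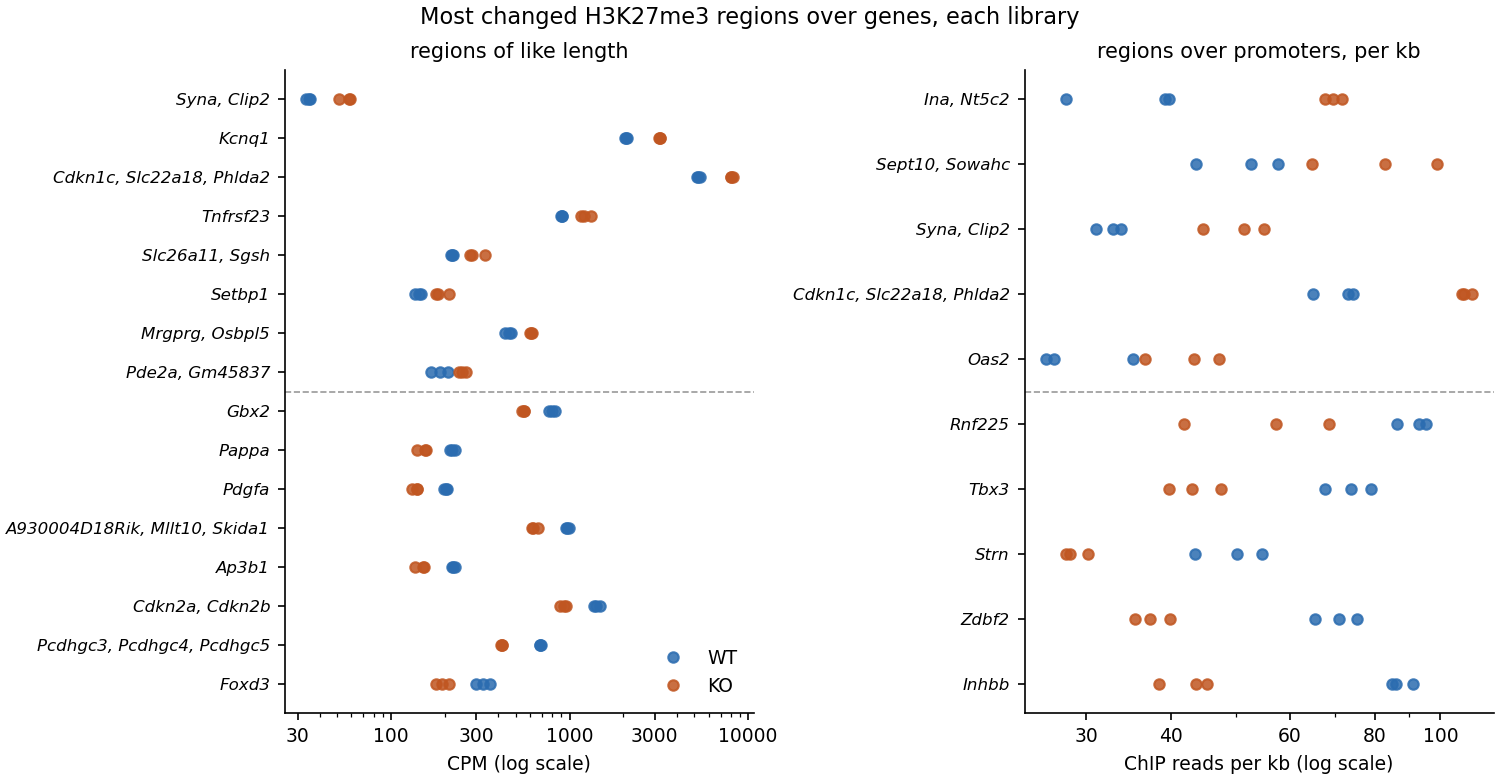
Each library's H3K27me3 level over the regions named by rule, on log axes: left, CPM over regions of like length, and right, normalized ChIP reads per kb of called sequence over promoter regions. Blue points are WT and orange points KO libraries, and regions above the dashed line were higher in the KO and those below lower. The 3 WT and 3 KO points do not overlap in any row because the rule named only such regions.

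Regions whose islands differ in length needed reads per kb, so the 18622 regions present in all 6 lists were fitted again, with each library's covered length as offset. This fit called 326 regions higher (1.75%) and 192 lower (1.03%) in the KO, of which 129 and 148 of 17634 lay outside the 3 segments. Of 7786 promoters over a tested region, 192 were higher (2.47%) and 137 lower (1.76%). Counts moved with the scaling here too: without the trimmed mean of M-values (TMM) 126 were higher and 546 lower, so that the share of higher calls went from 62.9% to 18.8%. The median over all regions was then −0.10 in place of 0.00. With the input as offset 1214 and 1148 were called, and with the segments left out of the fit 68 and 62. Single libraries weighed on these counts as well. Without WT replicate 1, 260 were higher and 251 lower, and the share of higher calls was 50.9%. The counts were 184 higher and 96 lower without WT replicate 2, and 211 and 118 without WT replicate 3. They were 201 and 101, 219 and 120, and 255 and 138 without KO replicates 1, 2 and 3.

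Inhbb, the beta B subunit of activin and inhibin, had the largest loss in reads per kb of called sequence over a promoter (chr1:119416201-119428200). Its WT libraries held 84.9, 85.9 and 91.2 normalized ChIP reads per kb and its KO libraries 43.5, 38.4 and 45.2, and 835, 970 and 959 reads in all against 305, 331 and 310. No KO library came near the WT, at a log2 fold change of −1.05 ± 0.08 (SE; edgeR, adjusted p = 1.26e-05). Tbx3, a T-box factor of the naive state (chr5:119635401-119679400), kept its window covered in full in all 6 libraries, with 67.4, 79.1 and 73.9 reads per kb against 43.0, 39.7 and 47.5 (−0.76 ± 0.08). In all, its islands held 2795, 2820 and 3167 reads against 1127, 1075 and 948, since those of the KO were also shorter. Zdbf2, an imprinted gene that is expressed from the paternal allele (chr1:63247401-63280800), had 65.3, 70.9 and 75.2 reads per kb against 37.3, 35.4 and 39.8 (−0.91 ± 0.08). At Zdbf2 the islands covered the whole 5100 bp window in each WT library and 364, 764 and 0 bp in the KO. In all, the Zdbf2 islands held 2159, 2196 and 2403 reads against 291, 225 and 195, a larger fall in total reads than at Inhbb.

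Strn, which encodes striatin, had 43.4 to 54.5 against 28.0 to 30.2 reads per kb (−0.76 ± 0.13), while its islands were longer in the KO and held 84, 93 and 85 against 108, 124 and 170 reads in all. The KO input was lower there by 0.46 (log2), and the call was lost with the input as offset (−0.28, edgeR, adjusted p = 0.149). Over Rnf225 (−0.75 ± 0.14; chr7:12926401-12931200) the KO input was lower by 0.33, the change was −0.42 with the input as offset, and no WT island reached the promoter window itself.

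Ina, the neuronal intermediate filament alpha-internexin, shares a start region with Nt5c2, a nucleotidase (chr19:47008601-47017000), and had the largest gain in reads per kb. It had 39.2, 39.7 and 28.0 normalized reads per kb in the WT and 69.5, 71.5 and 67.7 in the KO (1.01 ± 0.12, edgeR, adjusted p = 0.000278). WT replicate 3 was the lowest, with an island that covered all 5100 bp of the Ina window where the others covered 1797 to 1997 bp. Sept10 and Sowahc, a septin gene and its neighbour, had 43.6 to 57.5 against 64.7 to 98.8 reads per kb (0.67 ± 0.14), with 341, 448 and 510 reads against 233, 223 and 227, so that the islands were denser and shorter in the KO. That call was lost without WT replicate 2, WT replicate 3 or KO replicate 2, with a log2 fold change of 0.39 to 0.83 over the 6 libraries left out in turn. Oas2, an interferon-induced oligoadenylate synthetase, had 26.2 to 35.2 against 36.6 to 47.1 reads per kb (0.59 ± 0.14), and its call was lost under 8 of 13 other settings, among them leaving out WT replicate 2, WT replicate 3, KO replicate 1 or KO replicate 2 (0.50 to 0.69). An island reached the Oas2 window itself in WT replicate 2 and in no other library. Syna had 31.1 to 33.7 against 44.7 to 54.9 reads per kb (0.63 ± 0.12), a call lost without KO replicate 2 (0.56 to 0.71 with 1 library left out), with all reads in islands as library size and, as at like length, with the input as offset (0.14). The Cdkn1c region stood at 64.8, 73.0 and 74.4 against 108.5, 111.5 and 107.6 reads per kb (0.63 ± 0.06).

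Gene lists were read in the same fit, as counts beside those over all promoters tested. Of these promoters, 2.47% were higher and 1.76% lower, with a median log2 fold change of 0.01. The 3 segments held 451 of them. Counted as promoter regions, 138 were higher and 109 lower of 6553. Those outside the segments gave 67 higher and 87 lower of 6210, so the larger side turned. Of 14 genes of naive pluripotency, 5 lay over a tested region, and 2 of these were lower, Tbx3 and Gbx2 (83.0, 98.0 and 100.7 against 69.3, 67.8 and 67.1 reads per kb, −0.46 ± 0.07). The other tested members were Prdm14 (−0.18), Esrrb (−0.06) and Dppa3 (0.25), which did not pass, and the list's median was −0.18. Klf4 had islands over 3600 and 3200 bp of its window in WT replicates 2 and 3 and in no other library. None of 5 core pluripotency genes could be tested, since they held at most 1 island in 1 library.

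Formative and primed epiblast genes, which rise as cells leave the naive state, had 11 of 12 members tested, with Foxd3 lower, 4 above and 7 below 0. Mesoderm and endoderm genes had 13 of 14 tested, with 1 lower, 10 below 0 and a median of −0.08. The lower one was Gsc, a homeobox gene of the organizer (69.9, 81.3 and 81.1 against 56.6, 42.0 and 51.8 reads per kb, −0.64 ± 0.10). Gsc lies in the chromosome 12 segment, the KO input over it was lower by 1.02, and with the input as offset the sign turned (0.36, edgeR, adjusted p = 0.0132). Neuroectoderm genes had all 14 tested, 13 below 0 and a median of −0.15. Of these, 2 were lower and none higher. Zic1, a zinc finger factor of the neural plate, had 84.7, 98.4 and 99.7 against 77.0, 77.7 and 81.1 reads per kb (−0.26 ± 0.07). The Zic1 call was lost under 8 of 13 other settings, among them leaving out any library but WT replicate 1 (−0.34 to −0.22 with 1 library left out) and the input as offset (−0.05, edgeR, adjusted p = 0.638). Trophectoderm genes had 8 of 9 tested and none called (median −0.06, edgeR).

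Wnt ligands showed both directions. Of 19 members, all tested, Wnt6 and Wnt10a, which share a region, were lower (108.2, 121.0 and 118.3 against 83.7, 93.7 and 90.8 reads per kb, −0.37 ± 0.06) and Wnt7a was higher (44.7, 48.6 and 45.1 against 52.6, 57.5 and 53.7, 0.24 ± 0.06), with a median of 0.01. The Wnt7a call was lost under 8 of 13 other settings, among them leaving out any library but WT replicate 1 (0.20 to 0.28) and scaling by all reads in islands (0.10, edgeR, adjusted p = 0.423). Polycomb subunit genes, 6 of 18 tested, and genes of the NF-κB pathway, 5 of 10 tested, had no call, with medians of −0.02 and 0.03. Ezh2, Eed and Suz12, the core of PRC2, held no island in any library.

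**Figure D5:**
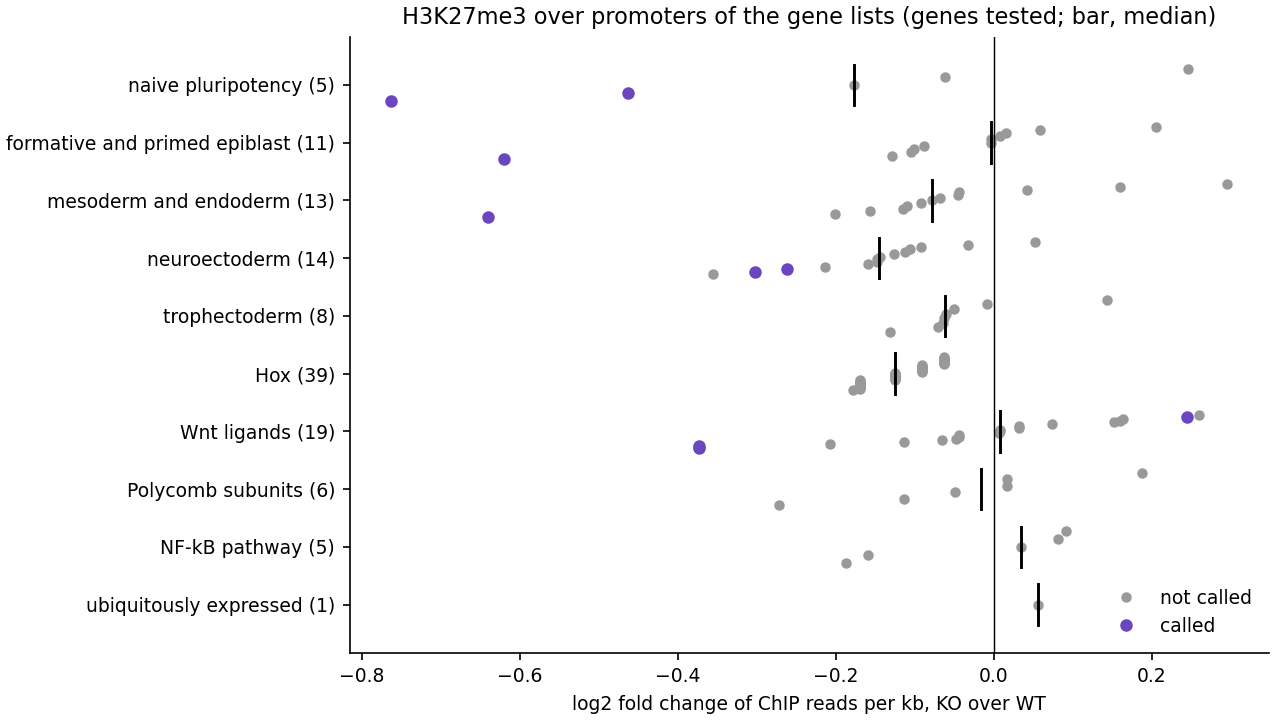
Log2 fold change (KO over WT) of H3K27me3 reads per kb over the promoters of each gene list; each point is a gene, purple where called and grey where not, the bar is the median and the number of genes tested stands in parentheses. Genes of 1 cluster share a region and so a value, as the 39 Hox genes do, and Hox and neuroectoderm medians lie at −0.13 and −0.15.

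In the like-length regions, which have the smaller error, more members passed. There, 10 of 13 neuroectoderm genes were lower and none higher, 6 of 9 mesoderm and endoderm genes lower and 1 higher, 4 of 5 trophectoderm genes lower and 1 higher, 3 of 7 formative genes lower, and both naive genes tested lower. Over all 1875 promoters in such regions 393 were lower and 359 higher. Outside the segments, 274 of 1243 like-length promoter regions were lower and 198 higher.

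The Hox clusters, which are known for broad PRC2 domains, moved a little and alike. All 39 genes lay in 5 like-length regions, and each was lower in the KO. The HoxA cluster (chr6:52143001-52288000) had 7499.7, 7987.8 and 8160.9 CPM against 6666.5, 6692.1 and 6941.2 (−0.22 ± 0.03, edgeR, adjusted p = 1.31e-09), HoxB (chr11:96245401-96387800) 7121.8, 7612.0 and 7771.3 against 6641.9, 6584.1 and 6858.6 (−0.16 ± 0.03), HoxC −0.12 ± 0.03, HoxD with Evx2 −0.17 ± 0.03 and Hoxb13 −0.20 ± 0.04. WT and KO libraries did not overlap in any of the 5, as in 352 of all 391 like-length regions called lower. The HoxB, HoxC and HoxD calls were lost with the input as offset (−0.09, −0.06 and −0.06; edgeR, adjusted p = 0.0600, 0.194 and 0.185), and HoxC also without WT replicate 2, WT replicate 3, KO replicate 1 or KO replicate 2 (−0.15 to −0.09 with 1 library left out). Per kb of called sequence, where the error was larger, all 39 genes were below 0 with a median of −0.13 and none was called (edgeR, adjusted p of 0.260 to 0.734), and WT replicate 1 lay within or below the range of the KO libraries in each of the 5 regions. Without that library all 5 were called lower, at −0.27 to −0.14, as they were with all reads in islands as library size (−0.31 to −0.20).

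What the changed regions shared beyond their genes was described without a test. Outside the segments, like-length regions higher in the KO had a median GC content of 50.7%, those lower 48.1% and those not called 49.0%, and the ratio of observed to expected CpG was 0.234, 0.294 and 0.257. The same order held in the promoter, gene body and intergenic classes for GC content. Called regions were wider, with medians of 28.9 kb in the higher and 26.1 kb in the lower set against 15.4 kb where not called, and held more reads in all (median WT levels of 453.7, 563.6 and 240.0 CPM). H3K4me3 calls of the WT overlapped 73.1% of the higher and 76.6% of the lower regions, H3K27ac calls 80.2% and 86.2%, and H3K9me3 calls 28.4% and 25.0%, against 60.7%, 71.9% and 19.9% where not called. The part of width in these shares was not tested.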

How the data were processed

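H3K27me3 ChIP-seq lists of 3 WT and 3 KO libraries were read on chromosomes 1 to 19. The authors trimmed reads (Trim Galore 0.6.6), aligned them to GRCm38 (Bowtie2 2.4.4), removed multimapped and low-quality reads, marked duplicates (SAMtools 1.15), discarded the Drosophila spike-in and called islands in 200 bp steps at an FDR under 0.05 (epic2; the processing notes list SICER 0.0.52). The deposited lists hold raw ChIP and input read counts, p-values and FDR, a log2 ratio of ChIP to input and a score that is 100 times that log2 value. The deposited H3K4me3 peaks (MACS2 2.2.7.1) hold fold enrichment, a score and −log10 p- and q-values, and only their positions were used, as for the other marks.

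Reads per kb are ChIP reads over island length. Because only reads in called islands are counted, a region without an island has no value, and an absolute loss or gain over all regions cannot be seen after scaling. Islands were merged at 1 bp of overlap. Class and width comparisons used exact permutation tests, two-sided. Regions called in all 6 libraries were tested with edgeR 4.0.16 (quasi-likelihood, TMM, Benjamini-Hochberg), without a floor on counts, and checked on simulated counts. CPM and normalized reads per kb use the TMM-scaled library sizes. Protein-coding genes came from GENCODE vM21 (GRCm38); genes with one region share its value. Named were, outside the 3 segments, the 8 highest and 8 lowest called like-length regions over genes with groups that did not overlap, the 5 highest and 5 lowest promoter regions per kb, the 5 longest restricted promoters each way, up to 3 called members per list, and Tbx3, Gbx2, Nfkbia, Pou5f1, Sox2 and Nanog; an input difference over 0.3 (log2) was marked. Of the list members this rule names, 1 is not reported here. Members, segments and lists were chosen with earlier results of these data known. Alternatives were other scalings, windows, length limits and thresholds, DESeq2 1.42.0, an input offset, and single libraries left out; scaling by all reads in islands and the GC offset were chosen after seeing the data.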

Additional observations from a re-analysis of the deposited data

How the results depend on the processing

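The class differences in covered sequence kept their sign under every alternative run. Leaving out 1 library gave KO minus WT differences of 0.127 to 7.76 Mb over promoters, 6.92 to 13.6 Mb in gene bodies, 8.11 to 17.2 Mb between genes and 5.03 to 12.1 Mb in islands of 20 kb and over, and −2.20 to −1.16 percentage points in the promoter share of reads. Measures without a difference changed sign. The number of promoter islands was lower in the KO by 65 with windows of 1000 bp either side, by 96 with classes by midpoint and by 145 with equal numbers of islands (written KO minus WT, −65.0, −96.0 and −145), and ranged from −168 to 132 with 1 library left out. For gene body islands the values were −169 with equal numbers and −344 to 1492 with 1 library left out. Reads per kb ranged from −1.48 to 0.589 over promoters, −1.04 to 0.749 in gene bodies and −1.16 to 0.595 between genes, and median widths from −300.0 to 433 bp over promoters and −66.7 to 533 bp in both other classes. Covered sequence ranged from −2.38 to 1.72 Mb under 2 kb and from −2.37 to 5.82 Mb at 2 to 5 kb, the latter at −2.93 Mb with equal numbers of islands. The log2 ratio of promoter to intergenic density ranged from −0.0135 to 0.0358. The KO share of intergenic restricted regions was 48.3% with equal numbers of islands. Promoters restricted to the KO numbered 154 to 192 and those restricted to the WT 170 to 224 with 1 library left out, when fewer libraries define them.

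Over like-length regions, 104 were higher and 658 lower with all reads in islands as library size, 95 and 115 of 434 with a length ratio of at least 0.9, and 896 and 1005 of 18622 with no length limit. DESeq2 called 256 and 300, and leaving out 1 library gave 284 to 396 and 330 to 477. With the length offset, 126 were higher and 546 lower without TMM, 85 and 682 with all reads in islands as library size, 1214 and 1148 with the input as offset, and 68 and 62 with the segments left out, while leaving out 1 library gave 184 to 260 and 96 to 251. The scaling by all reads moved the median of all regions from −0.01 to −0.09 at like length and from 0.00 to −0.14 with the offset. Gsc turned sign with the input as offset (0.36). The cause of these shifts was not tested. With the replicate number as a replicate block the counts were 340 and 404, and 296 and 182. Deviations of same-numbered WT and KO libraries correlated at 0.107, 0.041 and 0.041 at like length, against −0.076 to 0.024 for different numbers. With the offset they correlated at 0.021, 0.028 and −0.006, against −0.033 to 0.013. The same-numbered values were thus the highest at like length, though all were weak. Whether the numbers pair the libraries was not tested.

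The number of mapped reads was not given, but the lists imply the log2 ratio of total ChIP to total input reads. It was 0.200, −0.0003 and 0.061 in WT replicates 1 to 3 and −0.144, −0.253 and −0.154 in KO replicates 1 to 3. Each genotype shares 1 input, so WT replicate 1 was the deepest WT library and KO replicate 2 the shallowest KO library. Counts exist only where an island was called, so the number of reads in a region without one is unknown, and the restricted regions are the ones this touches. With 3 libraries against 3, the smallest p of a covered-sequence test is 0.1 (exact permutation).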
